A study of Mus musculus with 6 samples.

Results

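In E2A ChIP-seq of mouse neural stem cells, 1441 genomic regions held a peak in both E12KO and E47KO cells and overlapped no peak of wild-type (wt) cells. They were found by merging E12KO and E47KO peaks that overlapped by at least 1 bp. Merged regions with a peak of each knockout were kept, and those that touched a peak of wt replicate 1, 2 or 3 were removed. The 1441 regions were 7.65% of the 18833 regions with a peak in both knockouts (95% Wilson interval 7.28 to 8.04%, counting error only), and the 5 peak lists together gave 32693 merged regions. The regions were chosen by the presence and absence of listed peaks, so neither is a result. Wt replicate 3 set most of this number, since 7266 regions would have qualified without its list.

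There was 1 library of E12 KO (E12-/-) and 1 library of E47 KO (E47-/-) cells, set against 3 libraries of wildtype cells. All were C57BL/6J neural stem cells from E12.5 embryos, grown under proliferation conditions (20 ng/ml FGF-2, 20 ng/ml EGF), cross-linked with EGS and formaldehyde, and precipitated with the E2A antibody sc-349X. An input library of wildtype cells entered no comparison. The labels do not say how the alleles were made or whether the wt libraries came from separate embryos or cultures, and peak lists hold no readout of the deleted exons, so the genotypes could not be checked. No test between genotypes was possible with 1 library of each knockout.

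E2A is the product of the Tcf3 gene. Alternative splicing of a bHLH-coding exon gives the proteins E12 and E47, which bind E-box DNA (CANNTG) as homodimers or as partners of tissue-specific bHLH factors such as proneural proteins. Id proteins lack the basic DNA-contacting region and hold E proteins off DNA, and in neural progenitors this balance is tied to cell cycle exit and differentiation. Cells without 1 of these splice forms keep the exon of the other, which the antibody could precipitate; which form lay at a given region cannot be read from the lists.

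The lists differed in length, with 25229 peaks in E12KO and 22176 in E47KO, against 6814, 12772 and 24194 in wt replicates 1, 2 and 3. Of single knockout peaks, 18.3% in E12KO and 14.6% in E47KO overlapped no wt peak. Read depth was not used here, and the knockout lists carry no height, enrichment or q-value, so a region absent from a wt list may hold signal under the caller's threshold. Peak width was therefore the available measure of a knockout peak.

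The promoter sequences shown first belong to the 5 widest promoter regions for which RefSeq gave a single promoter with an E-box, ranked by the narrower of the 2 knockout peaks. Each runs 5′ to 3′ on the gene's strand from 250 bases before to 50 after the RefSeq start, in GRCm38.p6, while the peaks are in mm9, so the window need not be the exact stretch under the peak. Capitals mark every CANNTG, a motif that reads the same on both strands. These are the promoters of Ninj1 (chr13:49187279-49187578, plus strand), Peli2 (chr14:48120619-48120918, plus strand), Erh (chr12:80644062-80644361, minus strand), Mcl1 (chr3:95658471-95658770, plus strand) and Max (chr12:76962199-76962498, minus strand).
Ninj1: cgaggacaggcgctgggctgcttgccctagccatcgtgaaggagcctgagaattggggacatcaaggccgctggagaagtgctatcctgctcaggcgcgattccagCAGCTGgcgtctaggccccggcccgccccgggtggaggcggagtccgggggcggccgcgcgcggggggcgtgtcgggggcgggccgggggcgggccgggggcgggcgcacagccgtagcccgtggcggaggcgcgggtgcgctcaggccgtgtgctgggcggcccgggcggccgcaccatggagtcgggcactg
Peli2: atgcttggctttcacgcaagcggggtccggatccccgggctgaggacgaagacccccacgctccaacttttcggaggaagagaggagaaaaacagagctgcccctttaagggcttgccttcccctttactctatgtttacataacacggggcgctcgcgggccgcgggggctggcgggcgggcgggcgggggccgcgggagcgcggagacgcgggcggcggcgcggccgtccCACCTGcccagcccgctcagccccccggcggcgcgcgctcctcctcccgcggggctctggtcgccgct
Erh: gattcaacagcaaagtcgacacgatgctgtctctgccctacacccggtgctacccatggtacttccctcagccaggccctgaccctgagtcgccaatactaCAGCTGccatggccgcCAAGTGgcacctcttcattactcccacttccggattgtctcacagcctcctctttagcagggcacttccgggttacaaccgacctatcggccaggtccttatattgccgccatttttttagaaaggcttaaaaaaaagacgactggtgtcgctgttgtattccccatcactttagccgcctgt
Mcl1: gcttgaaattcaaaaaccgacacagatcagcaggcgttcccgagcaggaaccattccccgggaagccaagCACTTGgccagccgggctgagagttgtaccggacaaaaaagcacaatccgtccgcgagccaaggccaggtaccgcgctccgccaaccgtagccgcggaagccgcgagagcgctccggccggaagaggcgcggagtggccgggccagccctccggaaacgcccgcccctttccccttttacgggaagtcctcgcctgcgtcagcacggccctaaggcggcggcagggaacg
Max: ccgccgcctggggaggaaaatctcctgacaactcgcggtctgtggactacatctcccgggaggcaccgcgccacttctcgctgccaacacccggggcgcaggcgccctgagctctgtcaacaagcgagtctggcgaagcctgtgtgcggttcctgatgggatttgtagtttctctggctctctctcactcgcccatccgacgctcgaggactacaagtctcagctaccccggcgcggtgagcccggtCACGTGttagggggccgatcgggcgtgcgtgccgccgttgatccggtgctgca

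CAGCTG was the E-box found in more than 1 of the 5 promoters. It lay 144 bases upstream of the start in Ninj1 and 149 bases upstream in Erh, which also had CAAGTG at 133 bases upstream. Peli2 had CACCTG 18 bases upstream, Mcl1 had CACTTG 180 bases upstream and Max had CACGTG 3 bases upstream. Among 14730 protein-coding genes with a single RefSeq promoter, 69.2% held at least 1 CANNTG in this window, 15.0% held CAGCTG, 19.3% held CAGGTG or its reverse complement CACCTG and 7.72% held CACGTG, each of these being a form of CANNTG. The 5 printed promoters were kept for holding an E-box, so their motifs cannot be compared with these shares. The single RefSeq promoters of Mdga1, Zfp787, Srek1, Ythdf2 and Notch2, which were also among the widest promoter regions, held no CANNTG in this window. Only 303 of the 502 protein-coding genes with a promoter region of this kind (60.4%) had a single promoter in the table, so a comparison of base composition or motif content over them is void.

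Promoters were the most frequent class. Of the 1441 regions, 515 were annotated to a promoter (35.7%, 95% interval 33.3 to 38.2%), 431 were intergenic (29.9%), 265 lay in a later intron (18.4%) and 146 in a first intron (10.1%). The remaining regions were in 46 exons, 22 3′ UTRs, 13 stretches downstream of genes and 3 5′ UTRs. A promoter was annotated for 24.6% (23.9 to 25.2%) of the 17392 both-knockout regions that overlapped a wt peak. The intervals do not overlap, but they cover counting error only, and regions of the same libraries are not replicates of a genotype.

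The promoter share was lower with each further wt list that held the region. It was 35.7% with no wt list, 28.7% with 1 wt list, 25.2% with 2 wt lists and 17.3% with all 3 wt lists, while the intergenic share was 29.9%, 32.7%, 34.3% and 38.4%. The high promoter share was not confined to regions found in both knockouts. Regions of E12KO alone were at promoters in 35.4% of 3141 cases, against 24.6% of 1739 regions of E47KO alone, and 17.4% of 230 regions in at least 2 wt lists and no knockout. Read by class, 10.8% of both-knockout promoter regions lacked a wt peak, against 6.39% of first-intron, 6.51% of later-intron and 6.67% of intergenic ones. Leaving out wt replicate 3 gave 29.9% promoters among the regions with no wt peak and 22.6% among those with one.

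**Figure D1:**
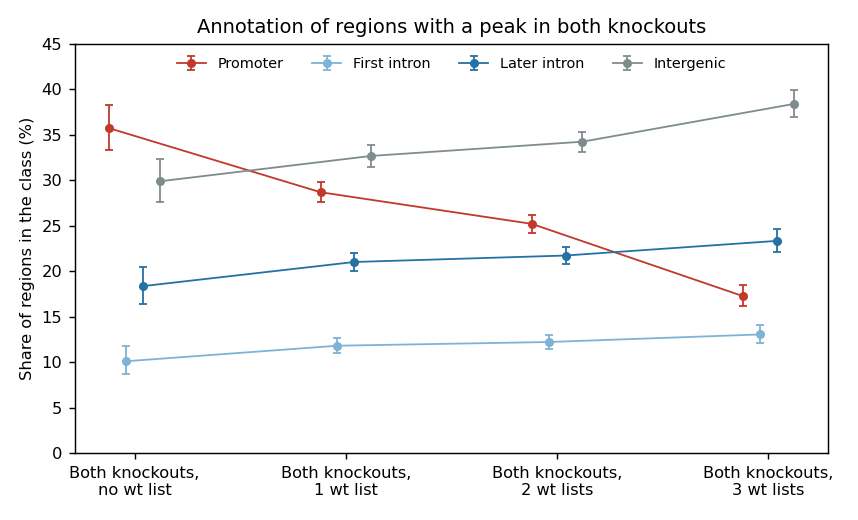
Share of both-knockout regions (y axis, percent) annotated to promoters, first introns, later introns and intergenic sequence, by the number of wt lists that held the region (x axis); points are shares and bars 95% Wilson intervals. The promoter share is 35.7% with no wt list and 17.3% with 3, while the intergenic share is 29.9% and 38.4%.

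The regions were narrower than both-knockout regions shared with wt. The merged regions had a median width of 556 bp (quartiles 399 and 796), against 776 bp (556 and 1101) for both-knockout regions with a wt peak. The E12KO peak had a median of 474 bp against 711 bp, and the E47KO peak 400 bp against 608 bp. The narrower of the knockout peaks had a median of 362 bp, against 571 bp with a wt peak and 429 bp with a peak in 1 wt list. Small width was not particular to regions without a wt peak. Merged regions of E12KO and wt replicate 3 only had a median width of 517 bp, and those of E47KO and wt replicate 3 only 473 bp. Peaks of the knockouts lay over each other, with centres a median of 58.5 bp apart and at least 90% of the narrower peak covered in 76.1% of the regions, against 85.8% of regions with a wt peak. The E12KO peak was the wider one in 922 of the 1441 regions (64.0%), against 67.2% of regions with a wt peak, so this lean was not larger here.

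Absence from wt was less frequent the wider the knockout peaks were. Where the narrower knockout peak was under 300 bp, 461 regions, or 24.9% of the both-knockout regions of that width, had no wt peak. The share was 9.80% from 300 to under 500 bp (602 regions), 4.52% from 500 to under 800 bp (277 regions) and 2.14% at 800 bp and over (101 regions). Wide regions without a wt peak were mostly promoters. In the same order of widths, 16.9%, 33.4%, 57.0% and 77.2% of the regions without a wt peak were promoters, against 9.63%, 15.0%, 25.9% and 38.9% of those with a wt peak. The difference in promoter share was thus present within each range of widths.

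**Figure D2:**
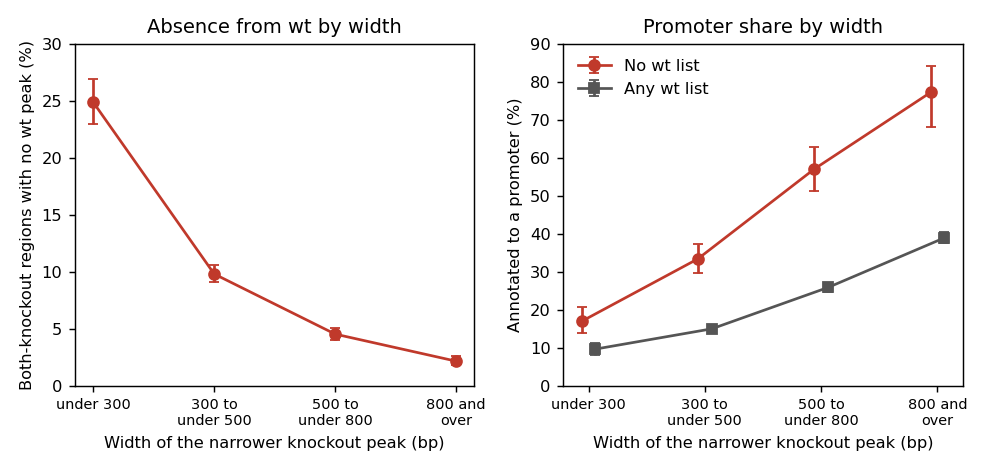
Left, share of both-knockout regions with no wt peak (y axis, percent) by width of the narrower knockout peak (x axis, bp); right, share annotated to a promoter among regions with no wt list (circles) and with any wt list (squares); bars are 95% Wilson intervals. The left curve goes down with width, to 2.14% at 800 bp and over, where 77.2% of the regions with no wt list and 38.9% of those with one are promoters.

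Among the promoter regions the narrower knockout peak had a median of 473 bp, against 718 bp for promoters of both knockouts with a wt peak. Outside promoters it was 319.5 bp in first introns, 317 bp in later introns and 320 bp between genes, against 517, 515.5 and 531 bp with a wt peak. Promoter regions were thus the widest of these 4 classes in both sets. In 26.8% of the regions the annotated start site lay inside the E12KO peak, against 20.3% with a wt peak. Within 10 kb of a start site lay 48.9%, against 40.0%. Regions of E12KO and wt replicate 3 only came close to this, with 23.0% and 48.0%. Those of E47KO and wt replicate 3 only had 14.3% and 39.0%. Of all 7662 both-knockout regions within 10 kb of a start site, 9.2% had no wt peak.

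By the width of the narrower knockout peak, the widest region lay over the promoter of Mdga1, a GPI-anchored immunoglobulin-domain protein of neuronal migration and synapse formation, at chr17:30024660-30026386 (mm9). Its peaks were 1686 bp wide in E12KO and 1673 bp in E47KO, and the nearest peaks of wt replicates 1, 2 and 3 were 13713, 13338 and 13250 bp away. The nearest wt peaks thus stood at like distances in all 3 wt lists, beyond 10 kb. The promoter of Zfp787, a zinc finger gene, had peaks of 1638 bp in E12KO and 1859 bp in E47KO, with wt peaks 10369, 10446 and 8770 bp away. Ninj1, whose protein ruptures the plasma membrane in lytic cell death, had promoter peaks of 1542 bp in E12KO and 2185 bp in E47KO, with wt peaks 7477, 7369 and 7076 bp away.

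The wt lists differed around other wide promoter regions. At the promoter of Tst, a mitochondrial sulfurtransferase, peaks of 1319 bp in E12KO and 1397 bp in E47KO stood 1105 bp from a wt replicate 3 peak, while the nearest wt replicate 1 and 2 peaks were 21469 and 20828 bp away. Peli2, a Pellino ubiquitin ligase of Toll-like receptor signalling, had promoter peaks of 1761 bp in E12KO and 1236 bp in E47KO, 67854, 1148 and 1032 bp from wt peaks. The splicing regulator Srek1 had promoter peaks of 1302 bp in E12KO and 1191 bp in E47KO and no wt peak nearer than 20039 bp.

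Of the 10 widest regions by the narrower knockout peak, 4 were intergenic. The widest of them, with peaks of 1537 bp in E12KO and 1295 bp in E47KO, lay 32094 bp upstream of Nemp2, a nuclear envelope protein gene, and at least 96184 bp from any wt peak. Another lay 3990 bp upstream of Zfp692, with a wt replicate 3 peak 3545 bp away, and another 14100 bp downstream of the start of the Wnt ligand gene Wnt10a, with a wt replicate 3 peak 688 bp away. The 4 promoters that completed the 10 widest promoter regions were those of Hnrnpll and Erh, which encode RNA-processing proteins, of Ythdf2, a reader of methylated mRNA, and of Sh3pxd2a, a podosome scaffold. Their narrower knockout peaks were 1167, 1124, 1128 and 1151 bp, and their nearest wt peaks 82537, 27106, 32251 and 24540 bp away.

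**Figure D3:**
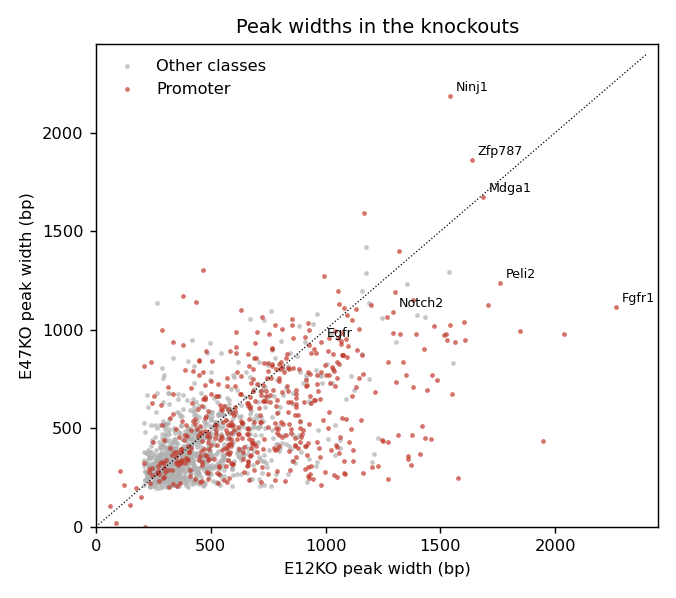
Width of the E47KO peak (y axis, bp) against that of the E12KO peak (x axis, bp) for each region in both knockouts and no wt list; dark red points are promoters, grey points other classes, and the dotted line marks equal widths. Points below the line have the wider peak in E12KO (922 of 1441), Fgfr1 has the widest E12KO peak at 2266 bp and Ninj1 the widest E47KO peak at 2185 bp.

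Many regions lay near wt peaks without touching one. A peak of any wt list lay within 10 kb of 540 regions (37.5%, 95% interval 35.0 to 40.0%), and a further, non-overlapping wt peak lay within 10 kb of 41.3% of the both-knockout regions that had a wt peak. By list, 186 regions (12.9%) had a wt replicate 1 peak within 10 kb, 310 (21.5%) a wt replicate 2 peak and 512 (35.5%) a wt replicate 3 peak, in the order of the lengths of these lists. For both-knockout regions with a wt peak, the shares with a further, non-overlapping one were 15.4%, 24.6% and 39.5%. Of the 540 regions, 219 had a neighbour in 1 wt list, 174 in 2 and 147 in all 3. A wt peak lay within 500 bp of 64 regions (4.44%), within 1 kb of 126 (8.74%) and within 2 kb of 212 (14.7%). A further wt peak lay as near to 3.25%, 7.23% and 13.7% of the both-knockout regions with a wt peak.

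The median distance to the nearest wt peak of any list was 18258 bp (quartiles 4845 and 44774). It was 88031 bp to wt replicate 1, 41605 bp to wt replicate 2 and 20039 bp to wt replicate 3. Among the 4 largest classes, first-intron regions lay closest, at a median of 9168.5 bp, with a wt peak within 10 kb of 51.4%, against 52.0% of first-intron regions that overlapped a wt peak. Later introns had a median of 16551 bp and 38.1% with a neighbour, intergenic regions 20301 bp and 36.2%, and promoters 22032 bp and 32.6%. For promoters that overlapped a wt peak, 35.2% had a further wt peak within 10 kb. Only wt replicate 1 has scores for such neighbours. The 180 wt replicate 1 peaks nearest to a region within 10 kb had a median fold enrichment of 7.53 in the authors' table, against 7.48 for the other 6634.

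**Figure D4:**
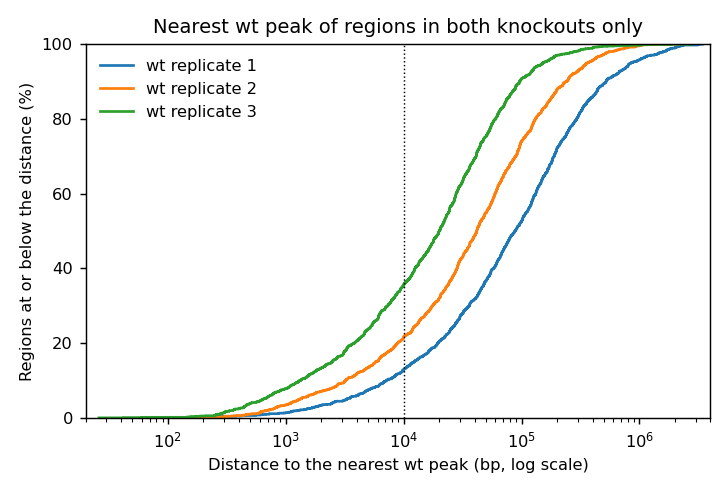
Cumulative share of the 1441 regions (y axis, percent) whose nearest peak in wt replicates 1, 2 and 3 lies at or below a given distance (x axis, bp, log scale); the dotted line marks 10 kb. At 10 kb the curves stand at 12.9%, 21.5% and 35.5%.

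The rule's edge was narrow at single sites. The regions just inside it lay in the first intron of Trib2, a pseudokinase gene, 26 bp from a wt replicate 3 peak, and at the promoters of Ppp6r2, 42 bp from one, and of the replication factor gene Cdc45, 60 bp from one. Their E12KO peaks were 1309, 892 and 616 bp wide and their E47KO peaks 937, 456 and 784 bp. Just outside it, a histone gene promoter region at Hist1h4h shared 25 bp with a wt replicate 3 peak. The regions nearest Tmx3 and Ttc32 were only 25 and 50 bp wide, and shared up to 25 and 46 bp with wt peaks. The smallest overlaps between the knockout peaks themselves were 1 bp at the Polr3f promoter, 17 bp at the 4930579G24Rik promoter and 36 bp at intergenic sites nearest Myh13 and Tmem161b. At Polr3f and 4930579G24Rik the E47KO peaks were themselves only 1 and 17 bp wide and lay wholly inside the E12KO peaks. Only 6 of the 1441 regions had a knockout peak under 150 bp.

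The regions were spread over the genome. By chromosome, between 6.16% (chromosome 4) and 9.33% (chromosome 19) of the both-knockout regions lacked a wt peak. Neighbouring regions on a chromosome lay a median of 817792 bp apart, and 26 adjacent pairs were within 10 kb. Among the genes named by the annotation, 1191 were nearest to 1 region, 102 to 2 and 14 to 3, and Mnd1-ps, a pseudogene, was nearest to 4. Those 4 covered a stretch of chromosome 14 and lay 12.2 to 595 kb from its start, 2 of them in intron 2 of the gene Fhit. Only 1 both-knockout region with a wt peak was nearest to Mnd1-ps.

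Tcf4, which encodes another E protein, was nearest to 3 regions. That at its promoter (chr18:69505196-69505913, mm9) had peaks of 718 bp in E12KO and 227 bp in E47KO, 308 bp from a wt replicate 2 peak and 261 bp from a wt replicate 3 peak. The others lay 214036 bp upstream and in intron 15 of 19. Tcf4 was also nearest to 19 both-knockout regions with a wt peak, so these 3 were a small part of its sites. The same held for Zfp608, a zinc finger gene with 3 regions and 34 shared with wt, and for Bahcc1, a chromatin protein gene with 3 and 13. Sh3pxd2a had 3 and 6, Tmem161b 3 and 8, and the kinase gene Map4k4, with all 3 in intron 2, and the semaphorin gene Sema6a had 3 and 4 each.

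Within 10 kb of the start site, 670 of 21896 protein-coding genes (3.06%) had a region of this kind. A both-knockout region with a wt peak stood within 10 kb of 23.5% of the genes. Of the 670 genes, 256 (38.2%) also had a wt peak within 10 kb, and 288 (43.0%) were named by no wt peak at any distance. Of these 288, 251 had the region at a promoter, and so had 502 of the 670 genes. The rule removed regions that overlap a wt peak, so the counts of genes without one are no result about the genes. Without wt replicate 3 the 670 genes would be 2834.

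Of these 288 genes, the 10 with the widest regions within 10 kb of the start site were chosen after their values were seen. All 10 regions were promoters. They were Hnrnpll, Hnrnpa0, Galns, Gls2, Mesdc2, Efemp2, Synj1, Zfp444, Slc4a2 and Zfp809. Hnrnpll and Hnrnpa0 encode hnRNP proteins. Hnrnpa0 had peaks of 994 bp in E12KO and 1274 bp in E47KO, with the nearest wt peak 27996 bp away. Gls2, a mitochondrial glutaminase, had peaks of 1081 bp in E12KO and 1109 bp in E47KO, with the nearest wt peak 17040 bp away. Galns, a lysosomal sulfatase, had 1133 bp in E12KO and 1106 bp in E47KO, 42449 bp from a wt peak. Synj1, a phosphoinositide phosphatase of synaptic vesicle recycling, had 1071 bp in E12KO and 984 bp in E47KO, 43913 bp from one. Slc4a2, an anion exchanger, differed from these in lying 278 bp from a wt replicate 3 peak, which was assigned to another gene.

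The promoter regions of Max, Mcl1 and Nras were likewise named after their values were seen, as examples, and stand for no gene group. Max is the bHLH-zipper partner of Myc, and the CACGTG printed in its own promoter is the E-box form Myc and Max prefer. Its peaks were 1058 bp in E12KO and 1129 bp in E47KO, with the nearest wt peak 37976 bp away. The promoter of the survival gene Mcl1 had 1266 bp in E12KO and 1064 bp in E47KO, 7962 bp from a wt peak. That of the GTPase gene Nras had 701 bp in E12KO and 986 bp in E47KO, 22228 bp from one.

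In 24 lists of 503 genes for pathways, cell types and E2A biology, 28 genes (5.57%) had such a region within 10 kb, against 3.001% of the other protein-coding genes. The listed genes were also richer in regions shared with wt, which 47.3% of them had, against 23.5% of all protein-coding genes. For each list, the share of its both-knockout regions within 10 kb that lacked a wt peak was also taken. In all 24 lists the Wilson interval of this share included 9.2%, the share over all both-knockout regions within 10 kb of a start site. No list was thus set apart from that share. All but 1 of the 28, the ribosomal protein gene Rpl13a, had a wt peak assigned to them somewhere. The 7 E protein and Id genes all had a both-knockout region with a wt peak, and 1, Tcf4, also had one without.

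Receptors for the growth factors of the culture medium were among them. In the FGF and EGF list 4 of 25 genes had such a region and 14 of 25 one shared with wt. Of the 25 both-knockout regions within 10 kb of these genes, 4 lacked a wt peak (16.0%, Wilson interval 6.40 to 34.7%). The interval includes the 9.2% over all such regions, so these counts do not show a lean to growth factor genes. The promoter of Fgfr1, an FGF receptor (chr8:26629219-26631484, mm9), had peaks of 2266 bp in E12KO and 1115 bp in E47KO, with wt peaks 15470, 15414 and 15144 bp away in replicates 1, 2 and 3. The promoter of Egfr, the EGF receptor (chr11:16651943-16653238, mm9), had 981 bp in E12KO and 938 bp in E47KO, with wt peaks 78021, 25646 and 63223 bp away. No wt peak lay within 10 kb of either region, although each gene had another wt peak annotated within 10 kb of a start site. The others were the exchange factor gene Sos1, with a promoter region 436 bp from a wt replicate 3 peak, and Spry1, an inhibitor of receptor tyrosine kinase signalling, with a region in its 5′ UTR 2419 bp from a wt replicate 2 peak.

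Of the Wnt list 4 of 31 genes had such a region, all at promoters. These were 4 of the list's 26 both-knockout regions within 10 kb (15.4%, Wilson interval 6.15 to 33.5%), which again includes 9.2%. The ligand gene Wnt5a had peaks of 1378 bp in E12KO and 465 bp in E47KO, and each wt list had a peak 864 to 963 bp away. The receptor gene Fzd3 had 1526 bp in E12KO and 979 bp in E47KO, 3092 bp from a wt replicate 3 peak. The receptor gene Fzd9 had 789 bp in E12KO and 285 bp in E47KO, 600 bp from one, and Lgr4, an R-spondin receptor, had 932 bp in E12KO and 270 bp in E47KO, 24458 bp from one. In all 4 the E12KO peak was the wider one.

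Of the Notch list 2 of 26 genes were present, against 20 with a region shared with wt. The promoter of the receptor gene Notch2 (chr3:97816994-97818288, mm9) had peaks of 1295 bp in E12KO and 1090 bp in E47KO, and peaks of wt replicates 1, 2 and 3 stood 9961, 9847 and 10014 bp away. Intron 2 of Notch1 had 579 bp in E12KO and 371 bp in E47KO, 3075 bp from a wt replicate 3 peak. Of the Sonic hedgehog list 2 of 15 genes were present, against 9 with a region shared with wt. The promoter of Ptch1, the hedgehog receptor, had 636 bp in E12KO and 451 bp in E47KO, 11608 bp from the nearest wt peak, and a site downstream of Gas1, a hedgehog co-receptor gene, had 624 bp in E12KO and 383 bp in E47KO, 913 bp from one. None of the 31 BMP and TGF-β genes had a region within 10 kb, and 12 of them had one shared with wt. With 21 both-knockout regions near these genes, the Wilson interval for 0 was 0 to 15.5%. It includes 9.2%, so the absence does not show a lack at BMP and TGF-β genes.

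Of cell cycle genes, 2 of 19 CDK inhibitor and cell cycle exit genes were present, Gas1 and Cdkn2c, against 13 with a region shared with wt. The promoter of Cdkn2c, the CDK inhibitor p18, had peaks of 1036 bp in E12KO and 263 bp in E47KO, 4845 bp from a wt replicate 3 peak. Of 22 cell cycle drivers 1 was present, E2f2, with a narrow site 8697 bp upstream of its start. A region shared with wt stood at 11 of the 22. Of 28 chromatin regulators 2 were present, against 19 with a region shared with wt. The promoter of the deacetylase gene Hdac2 had 1114 bp in E12KO and 662 bp in E47KO, with no wt peak nearer than 53144 bp, and intron 1 of the BAF subunit gene Arid1b had 225 bp in E12KO and 266 bp in E47KO.

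Of 25 neural stem cell marker genes 2 were present, against 21 with a region shared with wt. Nr2e1, the nuclear receptor Tlx of neural stem cell maintenance, had a region in intron 1, 308 bp from a wt replicate 2 peak, and another 7655 bp upstream. Hopx, a homeodomain-only gene of radial glia, had a region in intron 2 with the nearest wt peak 31095 bp away. Of the oligodendrocyte lineage 2 of 16 genes had a promoter region of this kind, and 8 had a region shared with wt. Pdgfra, the PDGF receptor of oligodendrocyte precursors, had peaks of 554 bp in E12KO and 534 bp in E47KO, 609 bp from a wt replicate 1 peak. Olig1, a bHLH factor, had 465 bp in E12KO and 1302 bp in E47KO, 3249, 3224 and 3259 bp from peaks of wt replicates 1, 2 and 3.

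Of 18 astrocyte genes 2 were present, the adhesion receptor gene Cd44 at its promoter and the transcription factor gene Nfib at 2 sites, both within 1 kb of a wt replicate 3 peak (302 and 799 bp). A region shared with wt stood at 11 of the 18 astrocyte genes. The promoter of the transcription factor gene Sox5 was the 1 region among 28 projection neuron genes, against 16 genes with a region shared with wt. That of the semaphorin gene Sema3c was the 1 among 32 axon guidance genes, against 12. Notch1 was also the 1 gene of the 20 lymphoid E2A targets, against 4 with a region shared with wt. No region stood within 10 kb of the 15 proneural bHLH, 21 interneuron, 18 skeletal muscle, 13 microglia, 12 endothelial or 14 mural and fibroblast genes. Of these lists, 3, 7, 4, 1, 2 and 3 genes had a region shared with wt.

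**Figure D5:**
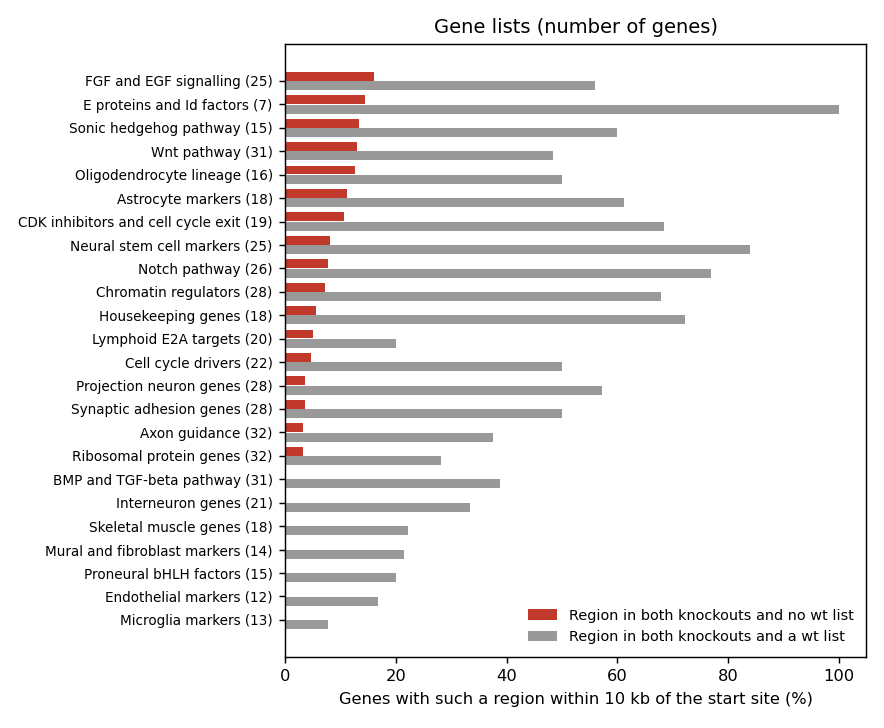
Share of the genes of each list (x axis, percent; number of genes in brackets) with a region within 10 kb of the start site in both knockouts and no wt list (dark red bars) and in both knockouts and a wt list (grey bars). The highest dark red bar is that of FGF and EGF signalling (4 of 25 genes), and in every list the grey bar is the longer one. The counts per list are too small for the order of the dark red bars to rank the lists.

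MicroRNA genes were nearest to 24 regions, at 22 genes, and 7 of these regions lay within 10 kb. Of all 301 both-knockout regions nearest to a microRNA gene the 24 were 7.97%, and of the 91 within 10 kb the 7 were 7.69%, both close to the 7.65% over all both-knockout regions. The mature strands of 4 of these microRNAs, chosen because their regions were promoters and the microRNAs are broadly known, are given 5′ to 3′ from RefSeq (GRCm38.p6), with the seed (bases 2 to 8), which pairs with target mRNAs, in capitals.
let-7i-5p: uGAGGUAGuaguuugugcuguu
miR-181a-5p: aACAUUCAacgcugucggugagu
miR-101a-3p: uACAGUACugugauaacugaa
miR-148a-3p: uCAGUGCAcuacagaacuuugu

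No 2 of these seeds were the same. The let-7 family is known for promoting neural differentiation. The region at Mirlet7i (chr10:122422647-122423614, mm9) had peaks of 583 bp in E12KO and 890 bp in E47KO, with no wt peak nearer than 53948 bp. Its E12KO peak lay 252 bp upstream of the annotated start, and its E47KO peak reached over that start. The region at Mir181a-1 had 662 bp in E12KO and 336 bp in E47KO, 26910 bp from a wt peak. That at Mir148a had 627 bp in E12KO and 675 bp in E47KO, 53300 bp from one. The region at Mir101a had 1380 bp in E12KO and 711 bp in E47KO and differed from the other 3 in lying 628 bp from a wt replicate 3 peak. The remaining regions within 10 kb were at Mir802, Mir1894 and Mir3083, and those at Mir9-3, Mir17 and Mir125b-1, microRNAs of neural progenitors and proliferation, lay 16.8, 204 and 148 kb from the start.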

How the data were processed

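Peak lists of 5 ChIP-seq libraries were used. MACS2 2.1.0, BWA 0.7.13, Picard 1.119 and the mm9 genome are named in the submitters' processing notes. The sources used here give no settings. The lists were deposited per library. Per the file headers, each annotated table gives peak start and end, feature, nearest gene and distance to its start site. Only the deposited wt replicate 1 table also holds, per peak, −log10 p and −log10 q, fold enrichment (a ratio) and pileup signal (coverage), as the authors' caller gave them. The annotated tables and the deposited BED lists held the same peaks except for wt replicate 1, whose BED list has 6815 summit positions against 6814 table peaks.

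Peaks were merged with pandas 2.3.3 and numpy 2.4.6 (Python 3.11.15), and the merging was checked on simulated peaks. A region took the annotation and start-site distance of its E12KO peak with the most overlap. Distances are bases between edges. Shares have 95% Wilson intervals (scipy 1.17.1), which cover counting error only. Gene classes came from RefSeq (GRCm38.p6, names and sequences only), where 1438 of the 1441 regions' genes were found. No test was made.

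Named were the 10 widest regions and promoter regions by narrower knockout peak, and genes with at least 3 regions (at most 8). Per list, up to 4 genes nearest the start were named. Further named were the 3 regions closest to wt peaks and the 3 both-knockout regions sharing the fewest bases with a wt peak. The 3 regions with least overlap between knockouts and regions at microRNA genes were also named. Values of a few genes that this rule names are left out here. The regions and gene lists were chosen with earlier results of these data known. Alternatives left out a wt list and changed overlap, distance, width, annotation and windows.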

Additional observations from a re-analysis of the deposited data

How the results depend on the processing

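Of 55 alternative values, 37 lay within 1.5 times the reported count or within the 95% interval of the reported share or median, and 18 did not. The counts inside that limit included 980 regions with knockout peaks of at least 300 bp and 962 genes within 50 kb. The 37 also include the values from the deposited BED lists. These could hardly differ, since only the wt replicate 1 list was not the same in both sources. Leaving out 1 wt list at a time gave 1539 to 7266 regions, 8.17 to 38.6% of the both-knockout regions, a promoter share of 29.9 to 36.7%, a wt peak within 10 kb of 24.3 to 36.5%, a median width of 557 to 601.5 bp and 729 to 2834 genes. The extremes of 7266, 38.6%, 29.9%, 24.3%, 601.5 bp and 2834 came without wt replicate 3, the longest wt list. With knockout peaks of at least 300 bp, 5.77% of both-knockout regions had no wt peak, 44.6% of these were promoters and the median width was 663 bp. Requiring no wt peak within 2000 bp gave 6.53% of both-knockout regions, and a wt peak within 10 kb of 26.7% of them; within 500 bp it gave 34.6%. Windows of 5 and 50 kb gave 25.3% and 77.3%. The mean width of the knockout peaks in a region had a median of 456 bp, and without a distance limit 1243 genes had a region. The promoter share was above that of both-knockout regions with a wt peak under the 10 settings tried, the reported one included.

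No paired analysis was possible because each knockout has 1 library and the peak lists give no test. The depth of the libraries is unknown, so absence from a list is not absence of binding. The wt replicate 1 list and the other lists carry different false discovery rate labels, and the thresholds of the lists without scores could not be checked. Width stood in for the strength of a knockout peak, and how well it follows strength was not tested.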
